A study of Rattus norvegicus with 5 samples.

Results

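The genes described here make small transmitters or load them into vesicles: Gad1 and Gad2, which encode both forms of glutamate decarboxylase, Ddc, which encodes aromatic L-amino acid decarboxylase, and Slc18a1 and Slc18a2, which encode the vesicular monoamine transporters. They were chosen by name, with earlier results of these data known. All probe sets that the array platform assigns to these symbols alone were taken, 8 probe sets for 5 of the 10411 genes named on the array. Gad1, Slc18a2 and Ddc have 2 probe sets each. RNA was measured in INS-1 cells, an insulin-secreting rat insulinoma line, and in 4 clones of it that carry an FRT site, where a gene can be inserted by recombination, and the tetracycline repressor, which silences an inserted gene until tetracycline is given. The labels of these samples name no inserted gene and no tetracycline treatment. The groups were parental INS-1 (1 array), set 1-1 (clones 1-1.2 and 1-1.16) and set 5-3 (clones 5-3.14 and 5-3.19), with 1 array for each clone. Each set is therefore represented by 2 clones. The sets were taken from the shared prefix of the clone names. Whether the clones of a set share an origin is not given in the sources used here.

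GABA is made from glutamate by glutamate decarboxylase and is packed into synaptic-like vesicles by its own transporter; beta cells are among the few cells outside the nervous system that make it in quantity. Serotonin and dopamine are made by decarboxylation of hydroxylated tryptophan and tyrosine, which aromatic L-amino acid decarboxylase carries out, and are then exchanged for protons by a vesicular monoamine transporter. Slc18a1 is known mainly from endocrine cells such as chromaffin and enterochromaffin cells, and Slc18a2 mainly from neurons. All these decarboxylases use pyridoxal phosphate as cofactor.

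Sequence before an annotated start was matched for 4 of the 5 genes in RefSeq's GRCr8 build, and short stretches are shown because the genes, members of the same pathways, differ from each other in the motifs they hold there. The table lists a start for each window, and an annotated transcript can begin farther out. For Gad1, Gad2 and Ddc the stretch ends at the base before the outermost annotated start and has up to 100 bases; for Slc18a2 it is 30 bases around 1 motif. Capitals mark a TATA box (TATAAA, or its reverse complement TTTATA) or a cAMP response element (TGACGTCA, which reads the same on both strands).
Gad1, chr3:75777202-75777259, plus strand: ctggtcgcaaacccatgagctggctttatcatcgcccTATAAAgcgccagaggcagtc
Gad2, chr17:89671618-89671717, plus strand: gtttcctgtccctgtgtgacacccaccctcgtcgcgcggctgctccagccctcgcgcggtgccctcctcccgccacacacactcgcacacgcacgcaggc
Slc18a2, chr1:268399958-268399987, plus strand: agtgctatccgTGACGTCAgagccggactg
Ddc, chr14:90682831-90682930, minus strand: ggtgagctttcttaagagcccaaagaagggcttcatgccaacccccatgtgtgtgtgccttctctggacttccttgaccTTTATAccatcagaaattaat

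Over the 250 bases before each listed start, both strands were searched for these motifs and for the GC box (GGGCGG). Gad1 held 1 TATA box, 213 bases before its listed start and 21 bases before the outermost one, and 1 GC box. Slc18a2 held 2 GC boxes and the cAMP response element, 52 bases before its listed start. Ddc held 1 TATA box on the opposite strand in 1 of its 3 windows, 68 bases before that window's listed start and 21 bases before the outermost one. None of the 3 motifs was found in the Gad2 window. Of all 33469 windows of this length, 12.9% held TATAAA, 30.5% held GGGCGG and 1.59% held TGACGTCA. A match is a description of the letters and not a binding site.

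Signals are in arbitrary linear units, scaled so that the trimmed mean of every array was about 1000, and the median signal per array was 342.4 to 371.6. Probe sets were tested when their mean level was at or above a limit that corresponds to a signal of 194, which kept 9520 of 15866. This limit is the 40th percentile of mean level and was not estimated from background. Log2 differences and folds are of signal plus an offset of 21.8, so they understate the change of dim genes, and with 5 arrays their number limits the precision of every value. Of the 8 member probe sets, 4 passed the limit, 1 each for Gad1, Gad2, Slc18a1 and Ddc; both Slc18a2 probe sets and the other probe sets of Gad1 and Ddc lay below it. The parental array stood apart in added control RNAs: it was the highest array for 24 of 27 poly(A) control probe sets (median 1.45 times the clones) and the lowest for 15 of 18 hybridisation control probe sets (median 0.802 times). Its beta-actin 3′ to 5′ ratio, a measure of RNA integrity, was 1.60 against 1.49 to 1.73 in the clones. The part of array handling in differences from the parental line was not tested, and line and array cannot be told apart.

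The beta cell label was checked against 13 markers, of which 9 were measured, all above the limit. The summed signal of these markers was 128497 on the parental array, 127365 and 75082.8 in set 1-1, and 94989.4 and 92040.4 in set 5-3. Ins1 read 34380.8 to 42217 and Pdx1, a beta cell transcription factor, 1453.7 to 2845. Ins2 varied more, from 3952.8 to 30224, as did Pcsk2, from 1974.2 to 9129.9. Of the 9 measured markers, 8 had a lower mean level in the clones than on the parental array, and 1 (Ins1) a higher one. The median log2 difference was −0.515 against 0.007 over all tested probe sets, and limma called 0. All these differences share the 1 parental array. The glucagon gene Gcg also read high, from 2063.6 to 24433.9, as the only bright one among the other islet endocrine markers, of which 6 of 8 were measured, 2 passed the limit (Gcg and Ttr, 174 to 282) and 4 (Hhex, Ppy, Sst and Ghrl) were under 194 on every array. Markers of acinar and ductal cells were measured for 6 of 6, with summed signals of 1141.4 to 2162.4, most of it from the keratin gene Krt7. All 6 measured markers of fibroblasts, endothelium and leukocytes were below the limit for testing, with summed signals of 541.1 to 700.1. In bulk RNA, fewer cells of a type and less RNA per cell cannot be told apart.

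**Figure D1:**
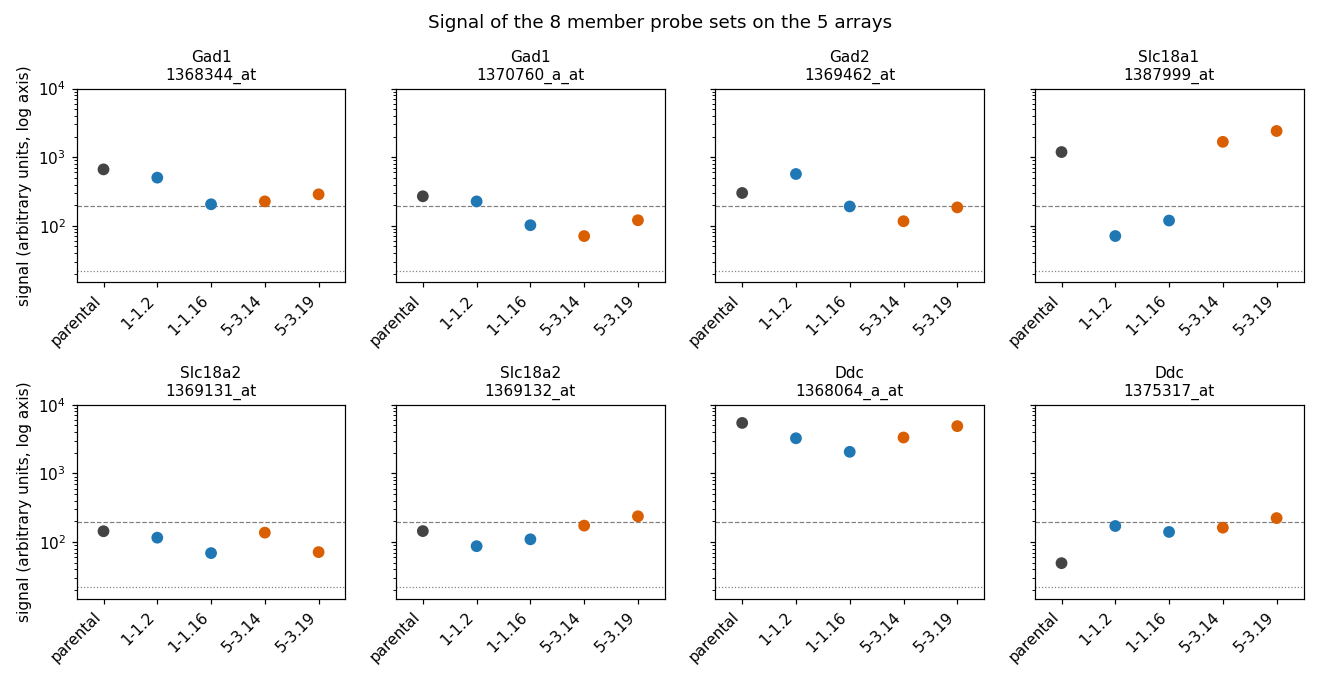
Signal (arbitrary units, log axis) of the 8 member probe sets on the 5 arrays, with 1 point per array: parental in grey, set 1-1 in blue, set 5-3 in orange. The dashed line is the limit for testing, a signal of 194 on average, and the dotted line the offset of 21.8. Slc18a1 is below the dashed line in both set 1-1 clones and above 1000 on the other 3 arrays, while both Gad1 probe sets are highest on the parental array and in clone 1-1.2.

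Of the vesicular loading genes, Slc18a1 separated the clone sets. Its probe set 1387999_at read 1189.2 on the parental array, 71.0 and 119.4 in clones 1-1.2 and 1-1.16, and 1675.0 and 2408.9 in clones 5-3.14 and 5-3.19. The sets did not overlap, as for 46.6% of all tested probe sets, and the parental signal lay between them, as for 12.1%. Both set 1-1 signals were under 194, where without detection calls a signal cannot be separated from background. The set means were 2042 ± 519 in set 5-3 and 95.2 ± 34.2 in set 1-1 (SD, n = 2 each). The measured difference of set 5-3 minus set 1-1 was 4.15 on the log2 scale (SE 0.31), and passed limma's test (Benjamini-Hochberg adjusted p = 0.00839). With set 1-1 placed at 194, the level in set 5-3 was at least 9.41-fold higher. The probe set passed the limit for testing through the 3 arrays where it is high. Here 0.221% of the 9520 tested probe sets were called higher in set 5-3 and 0.2% lower. Of the 4 member probe sets tested, 1 was called higher and 0 lower, and 1 had an unadjusted p under 0.05, a level reached by 14.8% of all tested probe sets in this comparison.

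The size of the Slc18a1 difference depended on the offset: it was 3.54 with an offset 4 times larger and 4.37 with one 4 times smaller, and passed with both (adjusted p = 0.0093 and 0.0098). In a fit to the 4 clones without the parental array it was 4.15 with an adjusted p of 0.00931. With a filter at the 60th percentile of levels the probe set was not tested. Against the parental line, Slc18a1 read 1.41 and 2.03 times as high in clones 5-3.14 and 5-3.19 as a ratio of signals. Set 5-3 minus the parental line was 0.75 on the log2 scale (SE 0.38) and did not pass (limma adjusted p = 0.734). With set 1-1 placed at 194, the parental level was at least 5.61-fold higher than in set 1-1. The measured difference of set 1-1 minus the parental line was −3.40 (SE 0.38), and it did not pass (limma adjusted p = 0.132). With 1 clone of set 1-1 left out, this difference was −3.10 without clone 1-1.2 and −3.71 without clone 1-1.16. Such fits have 1 residual degree of freedom, and in this comparison they called more probe sets of the whole array than the full fit. The 4 clones as 1 group differed from the parental line by −1.33 (SE 1.79), less than the spread between clones.

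Slc18a2, the paralogue of Slc18a1, was dim on both of its probe sets, which were not tested. Probe set 1369132_at read 144.6 on the parental array, 87.1 and 109.7 in the set 1-1 clones, and 173.8 and 237.5 in clones 5-3.14 and 5-3.19. These sets did not overlap either, as for 37.6% of all probe sets below the limit in either direction. The direction was that of Slc18a1, with a log2 difference of 0.91. Probe set 1369131_at read 143.9 on the parental array, 115.9 and 69.1 in set 1-1, and 137.2 and 71.4 in set 5-3, so that here the sets overlapped and the difference was 0.12. The probe sets of this gene thus gave different orders of the arrays, with a Pearson r of −0.15 over the 5 arrays. Without the filter, limma gave adjusted p = 0.393 and 0.945 for the set differences of 1369132_at and 1369131_at.

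**Figure D2:**
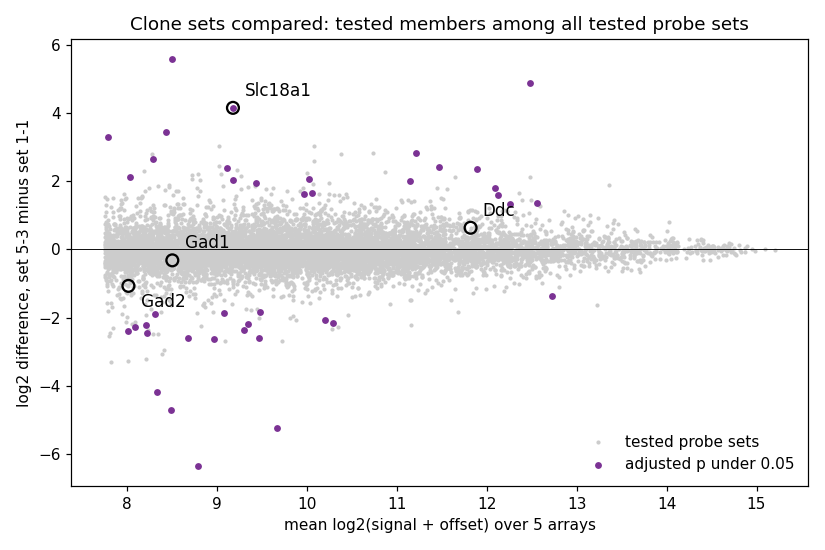
Log2 difference of set 5-3 minus set 1-1 (vertical axis) against the mean log2 level over 5 arrays (horizontal axis), 1 point for each of the 9520 tested probe sets. Purple points have an adjusted p under 0.05; circles mark the 4 tested member probe sets. Slc18a1 stands at 4.15 among the called points, and Ddc (0.64), Gad1 (−0.32) and Gad2 (−1.07) stand inside the grey cloud.

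Ddc, the decarboxylase of monoamine synthesis, was bright on probe set 1368064_a_at. It read 5448.7 on the parental array, 3257.7 and 2066.2 in clones 1-1.2 and 1-1.16, and 3340.4 and 4894.6 in clones 5-3.14 and 5-3.19. All 4 clones lay below the parental line, as for 19.7% of all tested probe sets, and the order from low to high was 1-1.16, 1-1.2, 5-3.14, 5-3.19 and parental. The sets did not overlap, as for 46.6% of all tested probe sets, but clones 1-1.2 and 5-3.14 differed by less than the spread within either set. The set 5-3 mean was 4118 ± 1099 and the set 1-1 mean 2662 ± 843 (SD, n = 2 each). Their log2 difference of 0.64 (SE 0.30) did not pass limma's test (adjusted p = 0.394). The clones as a group differed from the parental line by −0.75 (SE 0.43, limma adjusted p = 1.00), and set 1-1 alone by −1.06 (SE 0.37, adjusted p = 0.524).

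The other Ddc probe set, 1375317_at, was dim and had its lowest signal on the parental array. It read 49.3 on the parental array, 171.4 and 140.5 in set 1-1, and 162.1 and 223.6 in set 5-3. All 4 clones lay above the parental signal, by at least 2-fold in each, and the sets overlapped. The log2 difference of the clones from the parental line was 1.45, and 0.93 with an offset 4 times larger; without the filter limma gave it an adjusted p of 0.825. This probe set was below the limit for testing, and r between the Ddc probe sets was −0.33 over 5 arrays. Most of its signals were under 194, where they cannot be separated from background.

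Gad1, which encodes the glutamate decarboxylase that supplies most cytosolic GABA in neurons, was highest on the parental array. Probe set 1368344_at read 664.4 on the parental array, 503.7 and 206.1 in clones 1-1.2 and 1-1.16, and 227.1 and 287.6 in clones 5-3.14 and 5-3.19. Probe set 1370760_a_at, below the limit, read 269.5 on the parental array, 226.9 and 102.1 in set 1-1, and 70.9 and 120.6 in set 5-3. On both, the parental line and clone 1-1.2 stood above the other 3 clones, and r between them was 0.96 over the 5 arrays. Within set 1-1 the clones differed by 2.44 times on the first probe set and by 2.22 times on the second (ratio of signals), so the sets overlapped.

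Over the clones, Gad1 read 306 ± 136 (SD, n = 4) on 1368344_at, a log2 difference from the parental line of −1.15 (SE 0.48). All 4 clones were lower, as for 19.7% of all tested probe sets, and the difference did not pass limma's test (adjusted p = 1.00, unadjusted p = 0.0491). Set 5-3 minus set 1-1 was −0.32 (SE 0.42, limma adjusted p = 0.788), and it turned to 0.28 without clone 1-1.2.

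Gad2 encodes the membrane-associated glutamate decarboxylase, a target of autoantibodies in autoimmune diabetes. Its probe set 1369462_at read 301.1 on the parental array, 568.8 and 191.5 in clones 1-1.2 and 1-1.16, and 116.6 and 185.6 in clones 5-3.14 and 5-3.19. Clone 1-1.2 was above every other array, by 2.97 times over clone 1-1.16, and the other 3 clones were below the parental line. The sets did not overlap, as for 46.6% of all tested probe sets, though clones 1-1.16 and 5-3.19, at 191.5 and 185.6, were close. Signals in clones 1-1.16, 5-3.14 and 5-3.19 were under 194, where without detection calls they cannot be separated from background. The probe set passed the limit for testing through the parental array and clone 1-1.2. Set 5-3 minus set 1-1 was −1.07 (SE 0.51, limma adjusted p = 0.399), and it was −0.33 without clone 1-1.2 and −1.80 without clone 1-1.16. Set 1-1 minus the parental line was 0.14 (SE 0.62, limma adjusted p = 0.971), and it turned to −0.60 without clone 1-1.2.

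**Figure D3:**
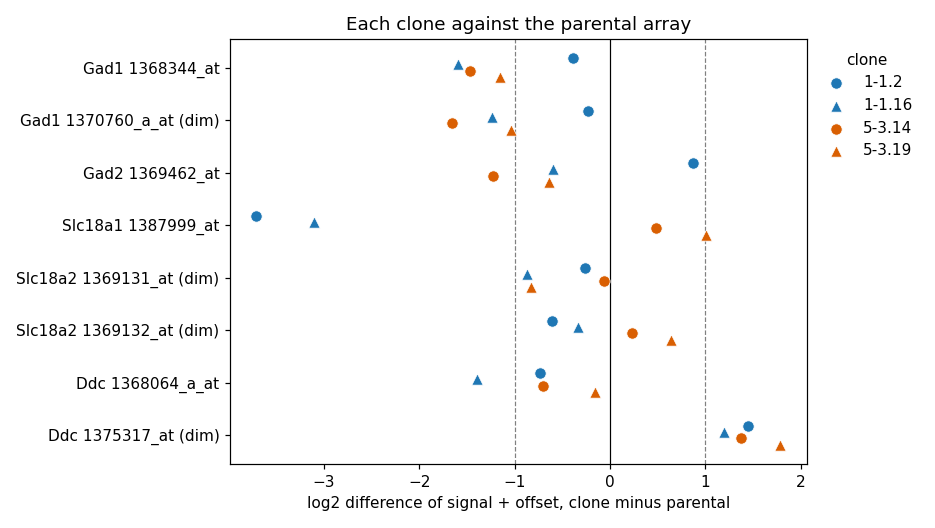
Log2 difference of each clone from the parental array (horizontal axis) for each member probe set (rows), 1 symbol per clone; dashed lines mark 2-fold, and dim marks probe sets below the limit for testing. Slc18a1 lies at −3.71 and −3.10 in set 1-1 and at 0.49 and 1.00 in set 5-3, and the Ddc probe sets lie on opposite sides of 0.

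Counted clone by clone, 1 of the 4 tested member probe sets was at least 2-fold from the parental line in clone 1-1.2 (Slc18a1, lower). In clone 1-1.16 there were 3, all lower (Gad1, Slc18a1 and Ddc). In clone 5-3.14 there were 2, both lower (Gad1 and Gad2), and in clone 5-3.19 there were 2, with Gad1 lower and Slc18a1 higher. Over all tested probe sets the shares at least 2-fold apart were 5.04%, 7.63%, 8.92% and 5.16% in the same order of clones. Between the clones of set 1-1, 2 of 4 were at least 2-fold apart (Gad1 and Gad2), where 2.67% of all tested probe sets were. Between the clones of set 5-3 it was 0 of 4, where 6.59% of all tested probe sets were. These single-array comparisons have no test, and all comparisons with the parental line share its 1 array.

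By limma, 0% of tested probe sets were called between the 4 clones and the parental line, 0.0105% between set 1-1 and the parental line and 0.0105% between set 5-3 and the parental line, and 0 of the 4 tested members were called in any of these. Over all tested probe sets, an unadjusted p under 0.05 was reached by 349 for the 4 clones, 806 for set 1-1 and 743 for set 5-3. For set 5-3 against the parental line the calls were 0 higher and 1 lower as deposited, and 1 higher and 4 lower under median centring, quantile normalization and cyclic loess alike. Among the members, Gad1 reached an unadjusted p of 0.0491 for the 4 clones and 0.0396 for set 5-3, Ddc 0.0238 and Slc18a1 5.77e-05 for set 1-1, and Gad2 in none.

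The genes whose pattern over the 5 arrays was most like each tested member, among 1797 genes that varied at least 2-fold, are given as descriptions, since many genes share a pattern over 5 arrays by number alone. Like Slc18a1 were Cltrn (r = 0.997), which encodes collectrin, the epithelial transcription factor gene Elf3 (r = 0.99) and Btbd9 (r = 0.99). Cltrn read 6403.2 on the parental array, 1854.5 and 2398.5 in set 1-1, and 7062.2 and 7618.1 in set 5-3. Like Ddc were the calcium sensor gene Vsnl1 (r = 0.996), Podxl2 (r = 0.99) and Ip6k2 (r = 0.99). Vsnl1 read 388.7 on the parental array, 177.1 and 77.7 in set 1-1, and 169.7 and 294.0 in set 5-3. Like Gad1 were Dnajc24, Fam53a and P4ha1 (r = 0.99, 0.99 and 0.98), and like Gad2 were Crym, Dtx2 and Sf3b5 (r = 0.99, 0.99 and 0.97).

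The insulin gene Ins2 read 28816.1 on the parental array, 30224.0 and 5380.8 in clones 1-1.2 and 1-1.16, and 3952.8 and 4302.7 in set 5-3. As for Gad1, its higher arrays were the parental line and clone 1-1.2. Over the 5 arrays, Ins2 had r = 0.93 with Gad1, 0.89 with Gad2, 0.30 with Ddc and −0.41 with Slc18a1. Ins2 was chosen by name, with earlier results of these data known, and was not among the 3 genes most like any tested member. Values of r for the other beta cell markers are not given here. Many genes share a pattern over 5 arrays by number alone, and no link between Ins2 and these genes was tested. The other insulin gene, Ins1, read 34380.8 to 42217.

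The rest of the GABA and monoamine pathways was described from lists of 129 genes, of which 101 were measured and 42 tested, by the brightest probe set of each gene. Between the clone sets limma called 0 of the 42, with 6 at an unadjusted p under 0.05, against 14.8% of all tested probe sets, and a lowest adjusted p of 0.134; 21 were higher and 21 lower in set 5-3, with a median log2 difference of 0.002 against −0.04 over all tested probe sets. Between the 4 clones and the parental line 0 were called, with 4 at an unadjusted p under 0.05, against 3.67% of all tested probe sets; 17 were higher and 25 lower, with a median of −0.13 against 0.007 over all.

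Of 15 genes listed for GABA metabolism and transport, which include enzymes of glutamate and of cysteine sulfinate, 11 were measured and 6 tested. All 6 had a lower mean level in the clones, with a median log2 difference of −0.43 against 0.007 over all tested probe sets, and limma called 0. The differences of Aldh9a1 (−0.018) and Glud1 (−0.078) were close to none. Glul, which makes glutamine from glutamate, read 5305.0 on the parental array and 1719.5 to 3352.5 in the clones, a log2 difference of −1.29 (limma adjusted p = 1.00). Abat, which breaks down GABA, read 391.4 on the parental array and 231.9 to 332.3 in the clones. Aldh5a1, the next enzyme of that route, read 399.2 and 212.3 to 396.5, and Csad, which decarboxylates cysteine sulfinate, 412.1 and 225.2 to 349.8. In all 4 clones these 4 of the 6 genes lay below the parental signal, as for 19.7% of all tested probe sets. They share the 1 parental array. Glud1 (6797 in clone 5-3.14 against 5066.9) and Aldh9a1 (2483.1 in its highest clone against 2207.1) each had a clone above it. The vesicular GABA transporter gene Slc32a1 was dim, at 42.5 to 97.2 on the 5 arrays.

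Among GABA receptor subunits and their partners, 19 of 24 were measured and 8 tested, with 4 higher and 4 lower in the clones and 0 called. The subunit gene Gabrd read 2242.7 on the parental array and 415.0 to 765.2 in the clones, a log2 difference of −2.09 (limma adjusted p = 0.887). Between the sets, Gabarapl1, an autophagy and receptor trafficking gene, was 0.89 higher in set 5-3 on the log2 scale (adjusted p = 0.200), reading 1346.4 and 1051.6 in set 1-1 and 1882.5 and 2623.1 in set 5-3. The metabotropic receptor gene Gabbr2 read 552.8 to 1326.8, and the sets overlapped.

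Tyrosine hydroxylase (Th), which acts before Ddc, read 56.9 to 196.0 and was below the limit for testing; the tryptophan hydroxylases were not analysed here. Of the genes that act after Ddc, the dopamine hydroxylase gene Dbh read 47.9 to 126.6 and the adrenaline-forming methyltransferase gene Pnmt 17.4 to 54.9, both below the limit too. These belong to the chromaffin and enterochromaffin markers, of which 4 of 6 were measured, with a summed signal of 24390 on the parental array, 24135.3 and 18896.9 in set 1-1, and 21781.1 and 24910.7 in set 5-3, nearly all from the granule protein gene Chga. The sets overlapped for Th and Pnmt, and for Dbh they were next to each other, at 47.9 and 87.7 in set 1-1 and 89.1 and 126.6 in set 5-3.

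Of the genes for the pterin cofactor that tyrosine and tryptophan hydroxylase use, 4 were tested and 0 called between the sets. The recycling enzyme gene Qdpr read 3459.6 on the parental array, 8708.0 and 2539.0 in set 1-1, and 2039.5 and 2131.2 in set 5-3, with clone 1-1.2 alone high. Gchfr, the feedback regulator of the first enzyme of the route, read 255.6 on the parental array, 173.7 and 57.1 in set 1-1, and 413.6 and 248.0 in set 5-3, a log2 difference of 1.46 (limma adjusted p = 0.229). That first enzyme's gene, Gch1, read 2254.4 to 5096.4, and Pts was lower in set 5-3 (406.3 and 302.7 against 603.9 and 684.2, log2 difference −0.83, adjusted p = 0.212).

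Of the genes that remove monoamines, only Maob passed the limit, of 10 measured. This monoamine oxidase gene read 4396.6 on the parental array, 2431.3 and 964.5 in set 1-1, and 1675.9 and 2486.3 in set 5-3. All clones lay below the parental line, as for 19.7% of all tested probe sets, by −1.30 on the log2 scale (limma adjusted p = 1.00). The sets overlapped. The other 9, among them the plasma membrane serotonin transporter gene Slc6a4 (31.1 to 128.5), were below it. Of 31 measured monoamine receptor genes 5 passed the limit, and 21 read under 194 on every array. The alpha-adrenergic receptor gene Adra2a, which restrains insulin secretion, read 153.1 to 332.8, and the serotonin receptor gene Htr3a 186.7 to 436.7; the sets overlapped for both.

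The proton pump that drives vesicular uptake was measured for 14 of 19 subunit and partner genes, all tested. Between the sets 7 were higher and 7 lower in set 5-3, with a median log2 difference of 0.02, and limma called 0. The subunit gene Atp6v0d1 had the largest difference, 0.87 (adjusted p = 0.134), at 3698.3 and 2986.9 in set 1-1 and 6158.7 and 6060.5 in set 5-3, with 4012.8 on the parental array. Atp6v1d went the other way, by −0.67 (adjusted p = 0.219). Of the other vesicular transporters 3 of 8 measured were tested, among them the synaptic vesicle protein gene Sv2b (1149.6 to 1669.4) and the zinc transporter gene Slc30a3 (216.5 to 407.1), and 0 were called. Plpbp, which binds pyridoxal phosphate, was the measured gene of cofactor supply and read 2156.3 to 2619.8.

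**Figure D4:**
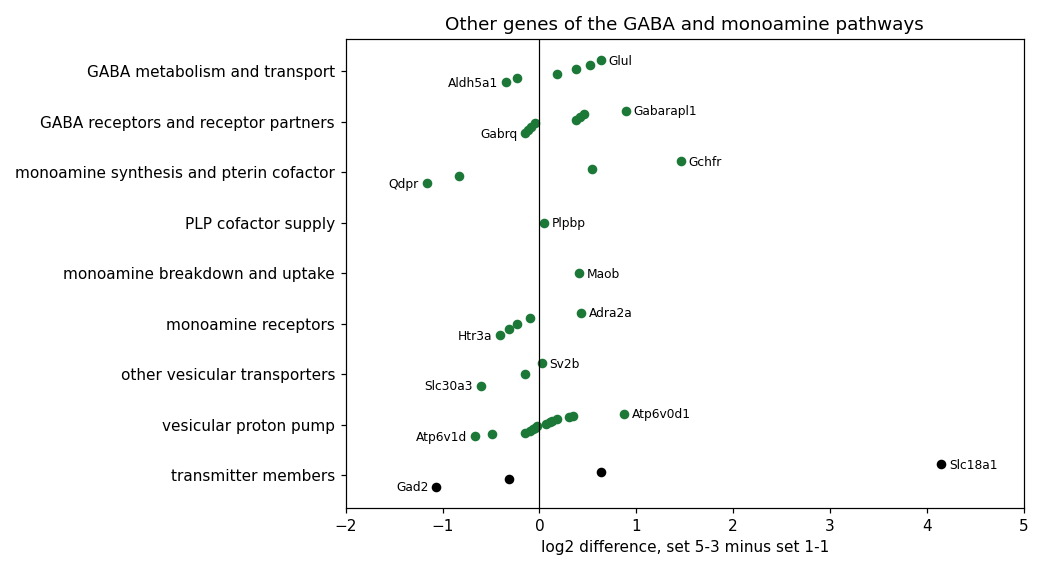
Log2 difference of set 5-3 minus set 1-1 (horizontal axis) for the 42 tested pathway genes, 1 green point per gene by list (rows), and for the 4 tested members in black; the lowest and highest gene of each list are named. The pathway genes lie between −1.17 (Qdpr) and 1.46 (Gchfr), and Slc18a1 lies at 4.15.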

How the data were processed

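Total RNA of 5 cultures was hybridised to single-colour rat arrays. The deposited signal intensity is linear and had been scaled by the authors to a common level (trimmed mean 1000.24 to 1000.28, as the values show). Not given in the sources used here are the software, background correction and detection calls. Of 15923 probe sets, 57 controls were left out. Gene names came from the platform table, where 12783 probe sets had 1 symbol, 312 had several and 2771 had none; 12748 matched the GRCr8 gene table, with 0 symbols changed.

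The intensities were tested as log2(signal + 21.8), the offset being the 10th percentile of positive signals, with limma 3.58.1 in R 4.3.3 (intensity trend, Benjamini-Hochberg over all 9520 probe sets at or above the 40th percentile of mean level, threshold 0.05). The 4 clones as 1 group leave 3 residual degrees of freedom and the fit with 3 groups 2. A single parental array is assumed to vary like the clones, and p-values measure only the spread between these arrays. The fit with 3 groups takes the 2 clones of a set as independent, which the sources used here do not establish. The scripts were first checked on simulated data; all reported values come from the deposited signals. Members and lists were chosen with earlier results of these data known. Named genes were all member probe sets, the 3 genes most like each tested member, the markers, and up to 3 genes each way from each pathway list. Alternatives were 3 other scalings, offsets 4 times larger and smaller, no filter or a 60th percentile filter, no trend, fits to other groupings of the same arrays, and leaving out each clone.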

Additional observations from a re-analysis of the deposited data

Results flagged for a closer look

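Of 68 probe sets looked at, those of 6 genes had 1 clone whose gap to the next, over the range of the 4 clones on the log2 scale, was above Dixon's critical value for 4 samples. For 4 independent normal values chance gives about 1 in 20. That rate need not hold here, since many of the 68 were picked for their differences or likeness and the clones fall in sets. Clone 1-1.2 was set apart for Gcg (lowest, 2063.6, ratio 0.871), Ins2 (highest, 30224, ratio 0.849) and Qdpr (highest, 8708, ratio 0.850). Clone 5-3.14 was set apart for Glud1, which links glutamate to the citric acid cycle (highest, 6797, ratio 0.866), and for the GABA receptor subunit gene Gabra4 (highest, 377, ratio 0.836). Clone 1-1.16 was set apart for the serotonin receptor gene Htr2c (highest, 295.7, ratio 0.905). None of the member probe sets met this limit.

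The clone sets lay on opposite sides of the parental line for 2 member probe sets. For Slc18a1 the difference of set 5-3 minus set 1-1 was 4.15 on the log2 scale (limma adjusted p = 0.00839). For the Slc18a2 probe set 1369132_at it was 0.91, and this difference was not tested in the filtered fit. Among the tested pathway genes named here the same held for Atp6v0d1 (0.87), Atp6v0a1 (0.31) and Pts (−0.83), whose differences did not pass limma's test (adjusted p = 0.134, 0.566 and 0.212). The parental array lay between sets that do not overlap for 12.1% of all tested probe sets and 8.35% of those below the limit. The untested pathway genes Gabrb2, Asmt and Sv2c had this pattern too, with 1.11, −1.04 and −0.85.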

How the results depend on the processing

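Between the clone sets, 21 probe sets were called higher and 19 lower in set 5-3. The counts were 38 and 32 with median centring, 32 and 32 with an offset 4 times larger, 7 and 3 without a filter and 6 and 6 with a filter at the 60th percentile; without an intensity trend 13 were higher. Leaving out 1 clone gave 31 to 127 higher and 18 to 137 lower, with 127 and 94 without clone 5-3.14 and 87 and 137 without clone 5-3.19. For set 1-1 against the parental line, with 0 higher and 1 lower, the lower count was 0 with median centring, without a filter and without a trend, and leaving out 1 clone gave 1 to 18 higher and 4 to 35 lower. For set 5-3 against the parental line, with 0 higher and 1 lower, there were 1 and 4 with median centring, quantile normalization or cyclic loess and 1 and 3 with the larger offset; the lower count was 0 without a filter and at the 60th percentile, and leaving out 1 clone gave 2 to 43 higher and 12 to 98 lower. For the 4 clones against the parental line leaving out 1 clone gave 0 to 0. At a limit of 3-fold, 129, 219, 225 and 115 probe sets differed from the parental line in clones 1-1.2, 1-1.16, 5-3.14 and 5-3.19.

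The Slc18a1 difference between the sets passed limma's test in every alternative that tested it, with adjusted p from 0.000886 to 0.0376 and 3.85 to 4.45 on the log2 scale without 1 clone. Without clone 1-1.2 the Gad1 difference between the sets on 1368344_at turned to 0.28 and Gad2 in set 1-1 minus the parental line to −0.60; without clone 1-1.16 these were −0.92 and 0.87. Fits without 1 clone have 1 residual degree of freedom. Of 188 values of tested member probe sets under the alternatives, 182 kept their sign and their side of the threshold, 2 turned sign as given above and 4 gained a call (Slc18a1 in set 1-1 against the parental line without 1 clone). Of 200 values of member probe sets below the limit, 8 turned sign, all of Slc18a2: 2 between the sets on 1369131_at (−0.18 without clone 1-1.16 and −0.26 without clone 5-3.14, against 0.12) and 6 between clones and parental line on 1369132_at (0.0027 to 0.18, against −0.02). No paired analysis was possible because the labels give no numbers that pair clones of the sets. With 1 parental array and 2 clones a set, signals under about 194 limit Slc18a2, the dimmer Gad1 and Ddc probe sets and Slc18a1 in set 1-1. They also limit Gad2 in clones 1-1.16, 5-3.14 and 5-3.19.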
